A study of Mus musculus with 10 samples.

Results

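The transcripts described here are those of 4 genes of the circadian clock, Arntl (also called Bmal1), Clock, Dbp and Rora, in the testis of mice given the histone deacetylase inhibitor trichostatin A (TSA). They were taken as every probe whose current or older gene symbol was one of these names. All 4 were found, each with 1 probe, among 9897 probes with values (8737 named genes), and all 4 were bright enough to be tested. The TSA pools came from male BALB/c mice, 9 weeks old, that had 1 subcutaneous injection of 60 µg TSA and were killed 2.5, 5, 7.5 or 10 h later. The carrier pool came from mice of the same strain, sex and age that had the solvent (dimethylsulfoxide and PBS) without TSA and were killed at 10 h. Each of the 5 pools held testis RNA of 3 mice and was read on 2 arrays. The duplicates were technical, so a pool was 1 sample, and p-values measured the spread between pools, with the animals of a pool not told apart. Each condition had 1 pool, so in the test against the carrier pool this spread also held any change over hours. The labels gave hours after injection and no hour of day. Among the TSA pools, hours since TSA and hour of killing could not be told apart, and only the 10 h pool was killed as long after injection as the carrier pool.

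In the mammalian clock ARNTL and CLOCK pair as an activator that binds E-box sequences and drives the Per and Cry genes, whose proteins shut the pair down again. RORA activates Arntl through ROR response elements, and the REV-ERB receptors (Nr1d1 and Nr1d2) repress it there together with a corepressor that carries the histone deacetylase HDAC3. DBP is an output factor under the control of E-boxes that acts at D-boxes, where NFIL3 opposes it. In many tissues Arntl and Dbp transcripts peak at nearly opposite hours of the day, whereas in rodent testis clock transcripts have been described as cycling weakly.

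The promoters of the members that moved apart most between pools, Arntl and Dbp, are shown first, since these are the stretches where such elements would be looked for. Both come from RefSeq on GRCm38.p6 and cover the 250 bases before the annotated start on the plus strand, at chr7:113207215-113207464 for Arntl and chr7:45704997-45705246 for Dbp. They are in lower case throughout because none of the searched motifs occurs in them.
Arntl: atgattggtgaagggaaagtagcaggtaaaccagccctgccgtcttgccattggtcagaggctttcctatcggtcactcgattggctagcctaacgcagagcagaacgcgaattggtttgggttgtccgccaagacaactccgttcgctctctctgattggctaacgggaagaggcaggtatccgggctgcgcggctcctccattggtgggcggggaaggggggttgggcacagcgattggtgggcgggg
Dbp: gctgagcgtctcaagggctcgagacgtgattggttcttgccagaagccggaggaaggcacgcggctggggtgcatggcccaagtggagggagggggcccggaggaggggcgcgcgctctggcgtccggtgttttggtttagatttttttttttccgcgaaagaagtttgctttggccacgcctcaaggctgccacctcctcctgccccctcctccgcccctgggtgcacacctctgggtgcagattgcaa
Windows of 300 bases, from 250 before to 50 after each start, were searched on both strands. The motifs were the E-box CACGTG, the D-box TTANGTAA, the nuclear receptor core AGGTCA and the ROR response element. As searched, the ROR response element had 11 bases and ended in that core or in GGGTCA. Over all 32851 mouse windows, 7.15% held the E-box, 2.32% the D-box, 16.3% the core and 0.384% the ROR response element. Of 10 windows of the 4 members, Per1 and Nfil3, 6 held none of these motifs, among them those of Dbp and Rora, which says only that these letters are not there. For Arntl, Per1 and Nfil3, 1 match each is printed below in 30 bases, with the match in capitals. They are the ROR response element that lies 27 to 37 bases after the second Arntl start (chr7:113207528-113207557, plus strand), the E-box at bases -166 to -161 from the first Per1 start (chr11:69098771-69098800, plus strand) and the core, on the opposite strand, at bases -12 to -7 from the Nfil3 start (chr13:52981034-52981063, minus strand).
Arntl ROR response element: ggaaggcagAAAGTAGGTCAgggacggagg
Per1 E-box: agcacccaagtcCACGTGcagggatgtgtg
Nfil3 receptor core: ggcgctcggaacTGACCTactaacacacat
The core also lay at bases -137 to -132 of Per1 and -119 to -114 of the third Clock start, which are not printed. A match describes the sequence and shows no binding.

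Values are the deposited intensities, linear and normalised by the authors so that all arrays had the same distribution, with a median of 1.00. Log2 folds of a pool over another are given with the standard error (SE) from the duplicate arrays. Duplicates correlated with r between 0.995 and 0.998 over 7422 tested probes. Among testis markers, 8 spermatid markers summed to between 844.1 and 894.9 in the TSA pools, against 812.6 in the carrier pool. The 6 spermatocyte markers summed to between 318 and 328.2, against 337.8. Such sums follow the brightest genes. Ldhc had pool means of 211 to 219 after TSA, against 195, while Pgk2 had 63.8 to 73.3, against 91.2. Dmc1 was dim, with 0.381 to 0.436, against 0.447. The 8 Sertoli markers summed to between 90.24 and 97.22, against 91.87, and 6 spermatogonia markers to between 23.18 and 25.84, against 25.95. The 6 Leydig cell markers summed to between 117.5 and 140.8 in the TSA pools, against 118.9, and the 5 peritubular markers to between 15.46 and 20.78, against 20.36. The 25 measured of 33 liver markers summed to 232 in the TSA 5 h pool, 20.4 to 22.53 in the other TSA pools and 20.57 in the carrier pool. By this sum, which includes markers too dim to test, the 5 h pool stood apart. Of the 16 tested liver markers, 15 met the 2-fold rule upward at 5 h, against 1.25% of all tested probes. Some of them, such as Apoa1 and Ttr, passed the brightness filter only through the 5 h pool, so this count is no separate support. In the carrier pool 11 liver markers were below the brightness limit for testing. In such bulk RNA, a different number of cells of a type and a different amount of RNA per cell cannot be told apart.

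Arntl, which encodes the core activator, was higher after TSA at every time sampled, and was the only member that passed the test of the TSA pools against the carrier pool. Its probe (5572, chromosome 7) had intensities of 0.434 and 0.424 in the carrier pool, 0.659 and 0.677 at 2.5 h, 0.741 and 0.791 at 5 h, 0.727 and 0.707 at 7.5 h, and 0.807 and 0.812 at 10 h. All 8 TSA arrays lay above both carrier arrays, as they did for 22.4% of the tested probes. The mean over the TSA pools was 0.74 ± 0.0613 (SD, n = 4 pools), against 0.429 in the carrier pool (n = 1). In limma, with Benjamini-Hochberg adjustment over all probes, the log2 difference was 0.79 ± 0.137 (SE), or 1.725-fold, with an adjusted p of 0.04589. The test called 2.83% of all probes higher and 0.835% lower, and 28.3% of probes had an unadjusted p under 0.05. The adjusted p ranged from 0.0002253 to 0.1251 over 23 alternatives and was under 0.05 in 12 of them. The difference was above 0 in all 23. The lowest adjusted p-values (0.0002253, 0.0006191 and 0.002849) came from fits with the 10 arrays as samples, which count technical duplicates. Those fits are among the 12, and the lowest value in the other alternatives was 0.02073, with eBayes trend and robust. Leaving out the 2.5, 5, 7.5 or 10 h pool gave adjusted p-values of 0.05722, 0.09113, 0.1068 and 0.05832. It was also above 0.05 without array 2 at 2.5 h (0.05996), array 2 at 5 h (0.05226), array 1 or array 2 at 7.5 h (0.06749 and 0.05307) or array 1 at 10 h (0.05456).

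By time, Arntl stood above the carrier pool by log2 folds of 0.64 ± 0.026 at 2.5 h, 0.84 ± 0.050 at 5 h, 0.74 ± 0.026 at 7.5 h and 0.92 ± 0.018 at 10 h (SE). The 10 h pool, the one matched to the carrier pool in hours after injection, thus showed 1.89-fold, and the earliest pool 1.558-fold. None of these reached the 2-fold size rule, which also asks that both arrays of a pool lie beyond both arrays of the other and which 1.23% of probes met upward at 10 h. At 1.5-fold Arntl met the rule at all 4 times, as did 2.51% of the tested probes. Probes of like brightness had duplicate arrays that differed by a median of 0.0948 on the log2 scale, which is array noise alone and holds no difference between pools or animals. In order from low to high the pools ran carrier, 2.5 h, 7.5 h, 5 h and 10 h, and the arrays of no neighbouring pools overlapped. Dbp and the kinase gene Csnk1e also had no such overlap, and the share of all probes without it was not counted. The 10 h pool stood above the 2.5 h pool by 0.28 ± 0.020 on the log2 scale, and the 7.5 h pool lay below the 5 h pool. The slope over hours, with the carrier pool at 0 h, was 0.078 ± 0.0230 per hour (limma adjusted p = 0.1093). Over the TSA pools alone it was 0.029 per hour (adjusted p = 0.4334). In the 7.5 and 10 h pools, where Arntl averaged 0.717 and 0.81, the liver marker sum was 20.4 and 21.55, against 20.57 in the carrier pool. The mean spermatid sums given above were also higher in all TSA pools. At 2.5 h the sums of the arrays (876.9 and 817.5) overlapped with those of the carrier arrays (796.6 and 828.6). Single markers differed: Acrv1 had pool means of 30.3 to 35.9 after TSA, against 22.8, and Smcp of 223 to 241, against 241. The part of spermatid RNA in the Arntl difference was not tested.

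**Figure D1:**
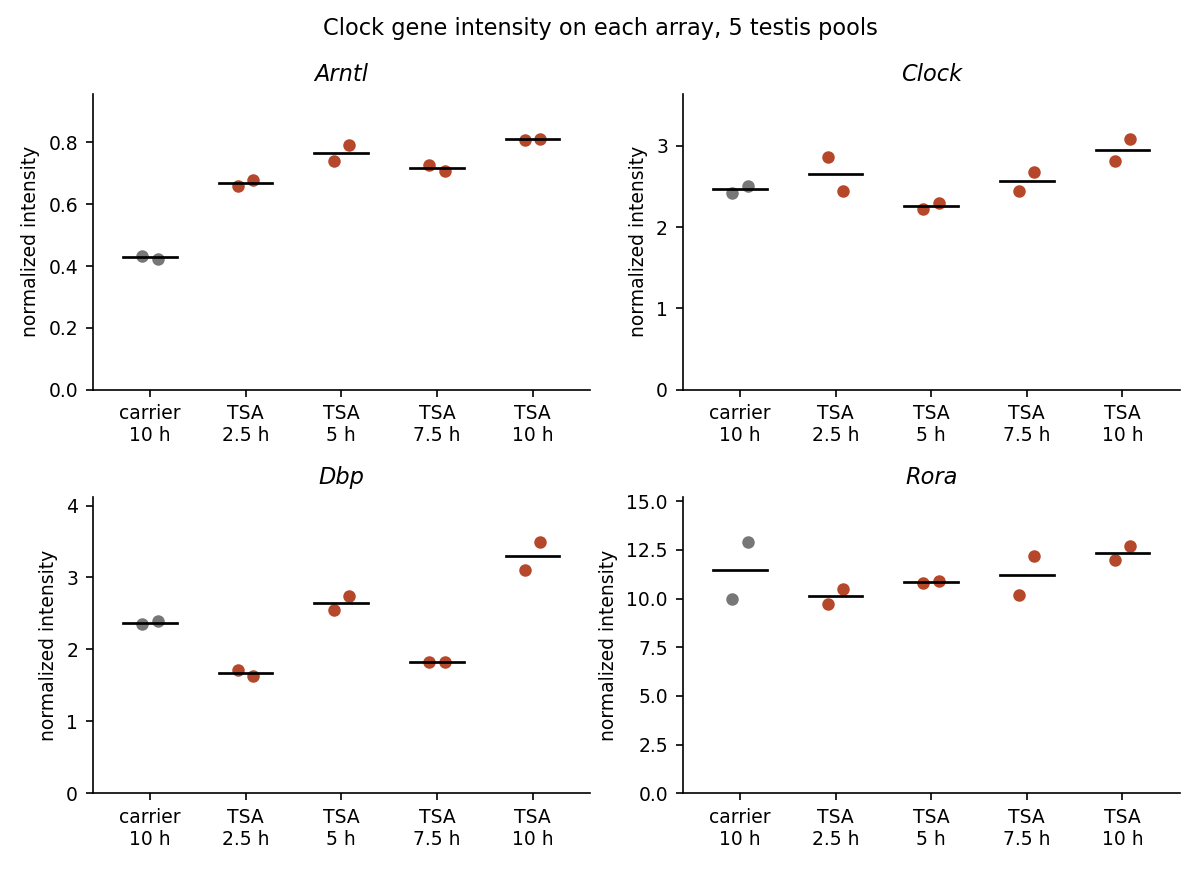
Normalised intensity (vertical axes, linear and arbitrary units) of Arntl, Clock, Dbp and Rora in the carrier pool and the TSA pools at 2.5, 5, 7.5 and 10 h. Points are the 2 arrays of a pool and lines the pool mean. Arntl lies at 0.659 to 0.812 on the TSA arrays and 0.424 to 0.434 on the carrier arrays, while Dbp alternates from pool to pool.

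Clock, which encodes the partner of ARNTL, differed little between pools. Its probe (237, chromosome 5) read 2.42 and 2.51 in the carrier pool, 2.86 and 2.44 at 2.5 h, 2.23 and 2.3 at 5 h, 2.45 and 2.68 at 7.5 h, and 2.82 and 3.09 at 10 h. The 5 h arrays lay below both carrier arrays and the 10 h arrays above both, and at 2.5 and 7.5 h the arrays overlapped with the carrier arrays. The TSA pools averaged 2.61 ± 0.284 (SD, n = 4), against 2.47 in the carrier pool. The log2 difference was 0.07 ± 0.155 (limma adjusted p = 0.7817) and the slope 0.019 ± 0.0167 per hour (adjusted p = 0.5161). Log2 folds over the carrier pool were 0.10 ± 0.118 at 2.5 h, -0.12 ± 0.034 at 5 h, 0.06 ± 0.069 at 7.5 h and 0.26 ± 0.072 at 10 h. The positive folds took the opposite sign when each array was centred within bins of neighbouring probe ID numbers (-0.211, -0.077 and -0.025 at 2.5, 7.5 and 10 h), so no direction is given for Clock. Without array 1 at 2.5 h or array 2 at 7.5 h the folds there were -0.017 and -0.008. In order of level, 3 of 4 neighbouring pools overlapped, and the highest pool was 1.305 times the lowest.

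Dbp, the output factor, differed between the TSA pools by more than any other member and went both ways against the carrier pool. Its probe (703, chromosome 7) read 2.35 and 2.39 in the carrier pool, 1.71 and 1.63 at 2.5 h, 2.55 and 2.74 at 5 h, 1.83 and 1.82 at 7.5 h, and 3.11 and 3.49 at 10 h. The arrays of the 2.5 and 7.5 h pools lay below both carrier arrays and those of the 5 and 10 h pools above both. Of the tested probes, 14.4% likewise lay above both carrier arrays at 1 time or more and below both at another. No neighbouring pools of Dbp overlapped in order of level, a trait whose share over all probes was not counted. Log2 folds over the carrier pool were -0.51 ± 0.034 at 2.5 h, 0.16 ± 0.053 at 5 h, -0.38 ± 0.010 at 7.5 h and 0.48 ± 0.083 at 10 h. At the matched time Dbp was thus 1.39-fold higher after TSA than after carrier.

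Between TSA pools no carrier value enters. Dbp was 1.974-fold higher at 10 h than at 2.5 h (log2 0.98 ± 0.088), just short of the 2-fold rule, which 0.189% of probes met upward in that comparison. It met the 1.5-fold rule there, as did 1.46% of probes, and it passed 2-fold without array 1 at 2.5 h (1.013) or without array 1 at 10 h (1.063). The steps between neighbouring times, compared after the values had been seen, were 0.67 ± 0.062 for 5 h over 2.5 h, -0.54 ± 0.053 for 7.5 h over 5 h and 0.85 ± 0.082 for 10 h over 7.5 h on the log2 scale. Arrays that were apart in this same sequence of higher, lower and higher were found for 6.98% of the tested probes. Over all TSA pools the mean was 2.36 ± 0.759 (SD, n = 4), against 2.37 in the carrier pool, and the log2 difference was -0.06 ± 0.361 (limma adjusted p = 0.9287). The slope, with the carrier pool at 0 h although it was killed at 10 h, was 0.043 ± 0.0367 per hour (adjusted p = 0.5062), and over the TSA pools alone 0.096 ± 0.0472 per hour (adjusted p = 0.3559). Without the 2.5 h or the 7.5 h pool the mean difference stood at 0.087 or 0.045.

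**Figure D2:**
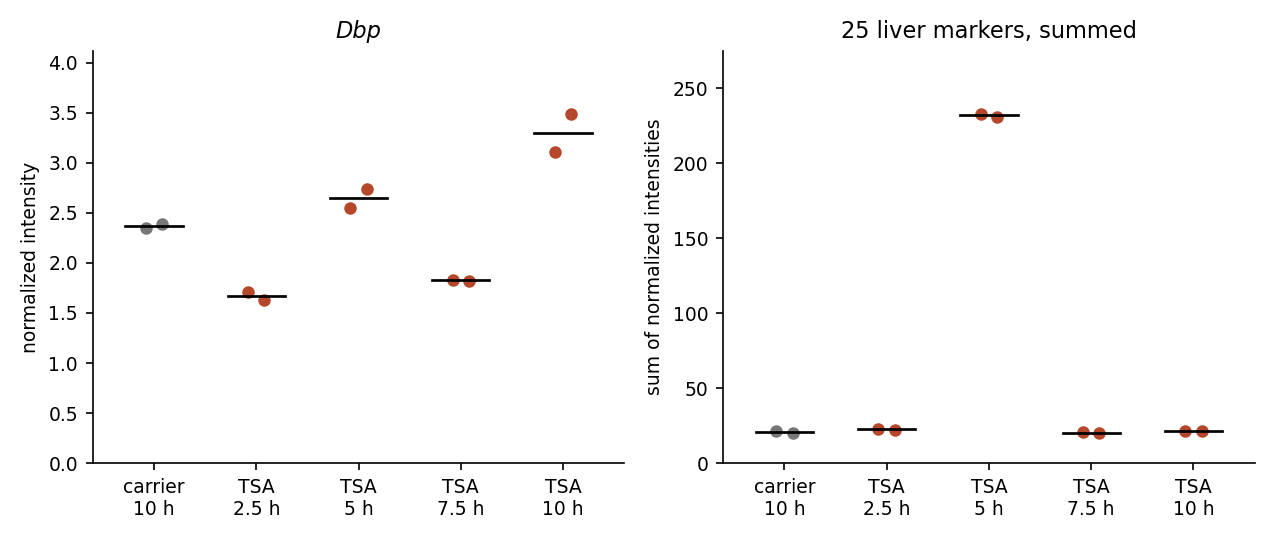
Left, normalised intensity of Dbp by pool, and right, the sum of normalised intensities of 25 liver markers, in the carrier pool and the TSA pools at 2.5, 5, 7.5 and 10 h. Points are the 2 arrays and lines the pool mean. Dbp is highest at 10 h, where the liver sum is 21.55, and the liver sum is highest at 5 h, at 232.

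The higher Dbp level at 5 h than at 2.5 and 7.5 h went with the liver marker sum of 232, against 22.53 at 2.5 h and 20.4 at 7.5 h. The part of that signal in the 5 h value was not tested. At 10 h, where Dbp was highest, the liver sum was 21.55, against 20.57 in the carrier pool. Leydig cell markers summed to 140.8, 127.4, 117.5 and 133.7 from 2.5 to 10 h, and their part was not tested either.

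Rora, which encodes the nuclear receptor that activates Arntl, showed no separation from the carrier pool at any time. Its probe (7301, chromosome 9) read 10.0 and 12.9 in the carrier pool, 9.74 and 10.5 at 2.5 h, 10.8 and 10.9 at 5 h, 10.2 and 12.2 at 7.5 h, and 12.0 and 12.7 at 10 h. The carrier duplicates were the widest apart, and every TSA pool overlapped with them. Log2 folds were -0.17 ± 0.19 at 2.5 h, -0.06 ± 0.18 at 5 h, -0.03 ± 0.22 at 7.5 h and 0.12 ± 0.19 at 10 h. The mean over the TSA pools was 11.1 ± 0.93 (SD, n = 4), against 11.5 in the carrier pool, a log2 difference of -0.04 ± 0.136 (limma adjusted p = 0.8828). It was 0.146 without array 2 of the carrier pool and 0.007 without the 2.5 h pool. The slope was 0.015 ± 0.0150 per hour (adjusted p = 0.5805). It was 0.0002 without array 1 and 0.0295 without array 2 of the carrier pool, and 0.0358 over the TSA pools alone (adjusted p = 0.9953, 0.2148 and 0.3049). Among TSA pools, both 10 h arrays lay above both 2.5 h arrays, by 0.29 ± 0.068 on the log2 scale.

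Across the 4 members, 1 passed the test of TSA pools against carrier and 0 passed the trend test, in which limma called 0.364% of probes rising and 1.67% falling. Without the 5 h pool, which held the liver transcripts, the log2 differences were 0.767 for Arntl, 0.138 for Clock, -0.136 for Dbp and -0.029 for Rora, and none passed the test. At an unadjusted p under 0.05 the trend test held 1 member, Arntl, and 25.2% of all probes. By the 2-fold size rule 0 of 4 were called at each time, against 0.674%, 1.25%, 1.01% and 1.23% of all probes higher and 0.243%, 0.323%, 0.903% and 1.44% lower at 2.5, 5, 7.5 and 10 h. Between 10 h and 2.5 h after TSA 0 of 4 were called, against 0.189% of probes higher and 0.795% lower. The 1.5-fold rule took 1 member, Arntl, at each of these times, against 5.27%, 5.38%, 6.32% and 8.58% of all probes higher. Without regard to size, both arrays lay above both carrier arrays for 1, 2, 1 and 3 members and below for 1, 1, 1 and 0. The shares of all probes were 35.5%, 36.8%, 36.5% and 39.8% above and 39.8%, 41.9%, 38.6% and 38.6% below, so a separation of this kind was common. Both 10 h arrays lay above both 2.5 h arrays for 3 members and 37.6% of probes. The members' median log2 fold was -0.04, 0.05, 0.01 and 0.37 at those times, and the median over all tested probes was -0.02, -0.02, -0.01 and 0.01. At 10 h all 4 members had folds above 0, as had 3782 of 7422 probes, but that of Clock took the opposite sign under the ID centring given above and that of Rora was -0.067 without array 1 of the carrier pool. Over the 10 arrays the log2 values of Dbp and Rora correlated with r = 0.557, and the other pairs with r between 0.047 and 0.381, as a description of arrays that share pools.

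**Figure D3:**
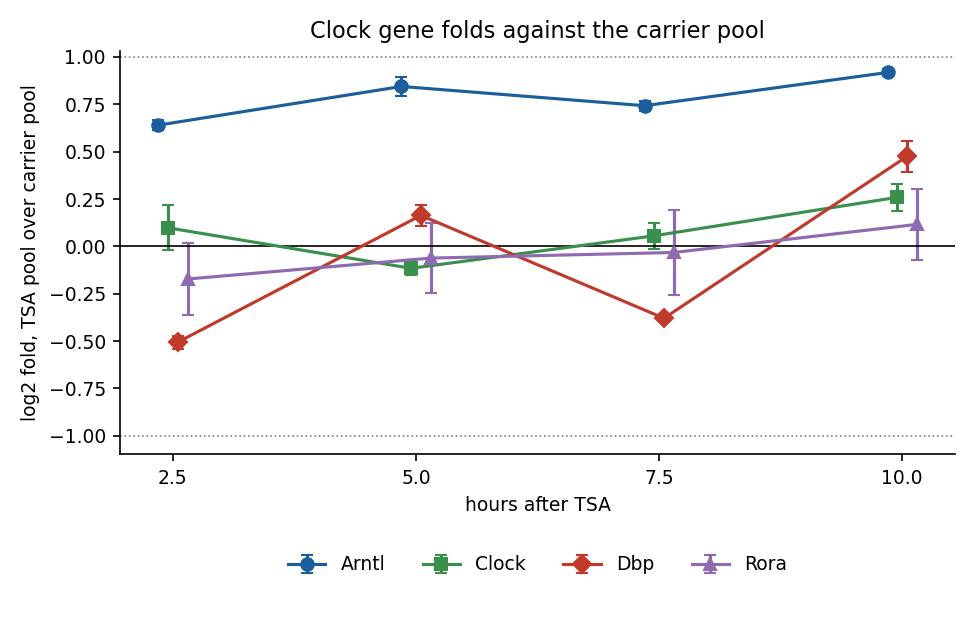
Log2 fold of each TSA pool over the carrier pool (vertical axis) against hours after TSA, for Arntl, Clock, Dbp and Rora. Bars are the SE from the duplicate arrays and dotted lines mark a log2 fold of 1 either way. Arntl stays between 0.64 and 0.92, Dbp crosses 0 between neighbouring times, and Rora and Clock stay within -0.17 and 0.26.

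Of 45 other clock genes listed, 25 were measured and 19 were bright enough to test, and the 20 without a probe were not analysed here. None of the 19 passed limma in either test, and none met the 2-fold rule against the carrier pool at any time. Under some alternatives others than Arntl were called in the test of TSA pools against carrier: 2 clock genes with the lowest 50% of probes left out, where Arntl was not tested, and 3, Arntl included, with eBayes trend and robust. At an unadjusted p under 0.05, 2 were higher and 3 lower in the TSA pools, and 2 had rising and 2 falling slopes, near the 28.3% and 25.2% of all tested probes. Their median difference was -0.08 on the log2 scale, against -0.02 over all tested probes. Per2, Per3, Npas2, Nr1d2, Tef and Bhlhe41 were too dim to test, with array values from 0.006 to 0.203.

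Among the repressors that ARNTL and CLOCK drive, Per1 had intensities of 0.283 and 0.309 in the carrier pool, 0.369 and 0.378 at 2.5 h, 0.35 and 0.362 at 5 h, 0.375 and 0.51 at 7.5 h, and 0.398 and 0.362 at 10 h. All 8 TSA arrays lay above both carrier arrays, as for 22.4% of all tested probes. The log2 difference was 0.38 ± 0.140 (limma adjusted p = 0.1372). Cry1, the partner of the PER proteins, read 0.893 and 0.92 in the carrier pool, 0.92 and 0.918 at 2.5 h, 0.716 and 0.779 at 5 h, 0.912 and 0.904 at 7.5 h, and 0.81 and 0.832 at 10 h. It lay below the carrier arrays at 5 and 10 h and overlapped with them at 2.5 and 7.5 h, with a log2 difference of -0.10 ± 0.145 (adjusted p = 0.6901). Cry2 stood at 0.09 ± 0.173 (adjusted p = 0.7488), and Bhlhe40, which encodes a repressor that competes at E-boxes, at 0.01 ± 0.173 (adjusted p = 0.9897). Timeless, a homologue of a fly clock gene, was below both carrier arrays on all 8 TSA arrays, as were 22.9% of all tested probes. Its log2 difference was -0.23 ± 0.123 (adjusted p = 0.2634).

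Nfil3, the repressor that opposes DBP at D-boxes, had the steepest positive slope of these 19 genes. It read 1.24 and 1.39 in the carrier pool, 1.45 and 1.56 at 2.5 h, 1.51 and 1.6 at 5 h, 1.68 and 1.74 at 7.5 h, and 1.91 and 1.88 at 10 h. The means of the TSA pools were in the order of their hours, and of neighbouring pools only those at 2.5 and 5 h overlapped. Cry1, Hdac3, Wdr5 and Sirt1 also had only 1 overlap between neighbouring pools. The shares of all probes with such an order or so few overlaps were not counted. The slope was 0.049 ± 0.0129 per hour (limma adjusted p = 0.09005), and the difference of TSA pools from carrier 0.33 ± 0.152 (adjusted p = 0.2045). At 10 h Nfil3 stood 0.52 ± 0.082 and Dbp 0.48 ± 0.083 above the carrier pool on the log2 scale, whereas at 2.5 h they stood at 0.19 ± 0.096 and -0.51 ± 0.034.

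**Figure D4:**
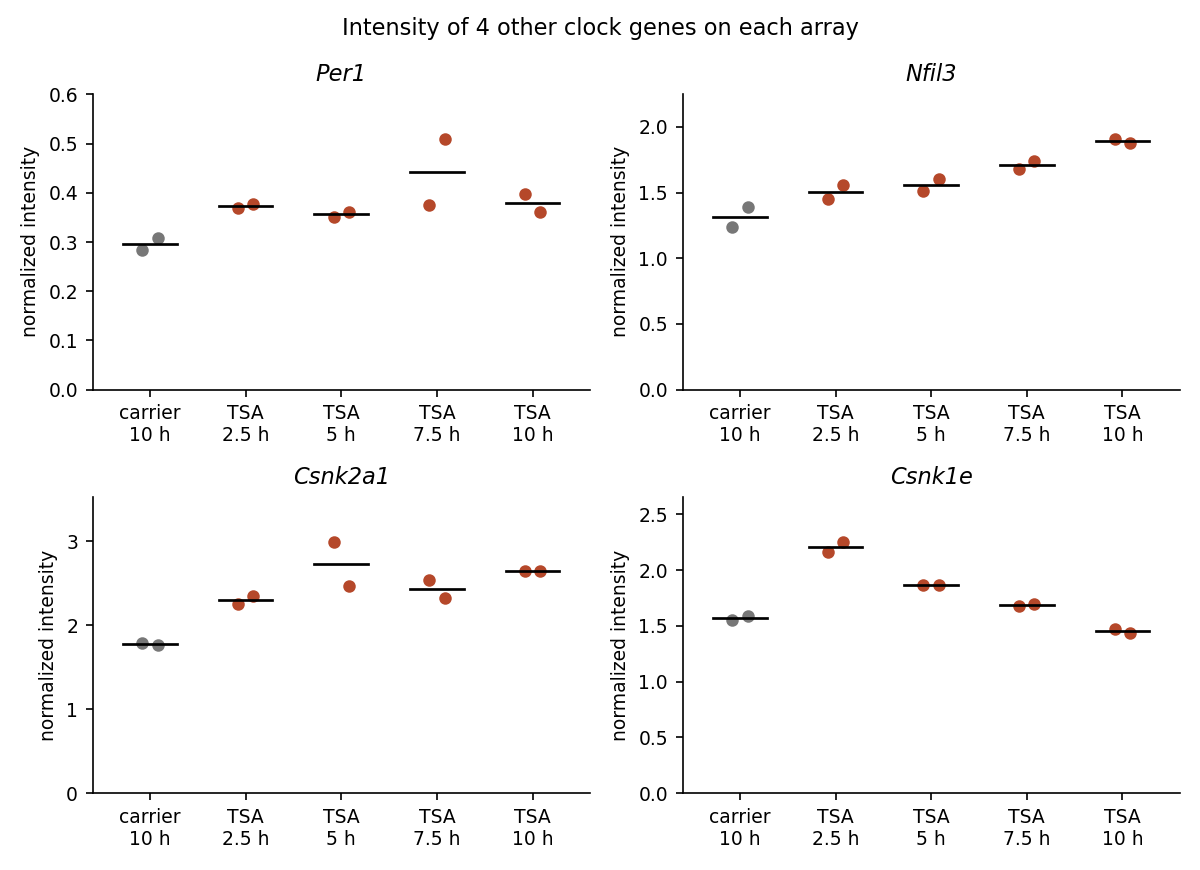
Normalised intensity (vertical axes, linear and arbitrary units) by pool of Per1, Nfil3, Csnk2a1 and Csnk1e, in the carrier pool and the TSA pools at 2.5, 5, 7.5 and 10 h. Points are the 2 arrays and lines the pool mean. Nfil3 has pool means of 1.5 to 1.89 after TSA and 1.32 after carrier.

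Among kinases that act on clock proteins, Csnk2a1, a catalytic subunit of casein kinase 2, read 1.79 and 1.77 in the carrier pool, 2.25 and 2.35 at 2.5 h, 2.99 and 2.47 at 5 h, 2.54 and 2.32 at 7.5 h, and 2.65 and 2.65 at 10 h. All 8 TSA arrays of Csnk2a1 lay above both carrier arrays, as for 22.4% of all tested probes. The log2 difference was 0.50 ± 0.134 (limma adjusted p = 0.07974). Csnk1e, a casein kinase 1 that phosphorylates PER proteins, read 1.55 and 1.59 in the carrier pool, 2.16 and 2.25 at 2.5 h, 1.87 and 1.87 at 5 h, 1.68 and 1.7 at 7.5 h, and 1.47 and 1.44 at 10 h. Csnk1e was thus highest in the earliest TSA pool, lower in each later one, and below the carrier arrays at 10 h, as were 38.6% of all tested probes. Its log2 difference was 0.19 ± 0.216 (limma adjusted p = 0.605) and its slope -0.024 ± 0.0240 per hour (adjusted p = 0.5713). Csnk1d, its close relative, had a slope of -0.052 ± 0.0185 per hour (adjusted p = 0.1486), with carrier arrays of 6.57 and 9.06. Gsk3b, another kinase of clock proteins, stood at -0.14 ± 0.107 (adjusted p = 0.4165).

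Of the cofactors that modify histones or clock proteins, Hdac3, the deacetylase of the REV-ERB corepressor and a target of TSA, read 2.3 and 2.22 in the carrier pool, 2.03 and 1.78 at 2.5 h, 1.65 and 1.64 at 5 h, 1.72 and 1.65 at 7.5 h, and 1.75 and 1.79 at 10 h. All 8 TSA arrays lay below both carrier arrays, with a log2 difference of -0.37 ± 0.122 (limma adjusted p = 0.1188). Sirt1, an NAD-dependent deacetylase that acts on clock proteins, stood between 4.47 and 5.67 on the TSA arrays, against 6.4 and 6.42 on the carrier arrays, with -0.36 ± 0.141 (adjusted p = 0.1543). Rbm4, an RNA-binding protein known to promote PER1 translation, was at 19.2 to 23.3 on the TSA arrays, against 28.5 and 29.6, with -0.48 ± 0.123 (adjusted p = 0.07563). Of all tested probes, 22.9% lay below both carrier arrays on all 8 TSA arrays. Wdr5, a histone methylation cofactor, stood at -0.08 ± 0.119 and Nono, a partner of PER proteins, at -0.10 ± 0.135 (adjusted p = 0.6917 and 0.6704).

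The ubiquitin ligase genes of the list held no called member. Btrc, whose product marks PER proteins for breakdown, stood at 0.07 ± 0.117, and the ligase scaffold and adaptor genes Cul1 and Skp1 at -0.06 ± 0.147 and -0.07 ± 0.113 on the log2 scale (limma adjusted p = 0.7418, 0.8071 and 0.7099). Ddb1, an adaptor of another ligase, had a slope of -0.041 ± 0.0128 per hour (adjusted p = 0.119).

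**Figure D5:**
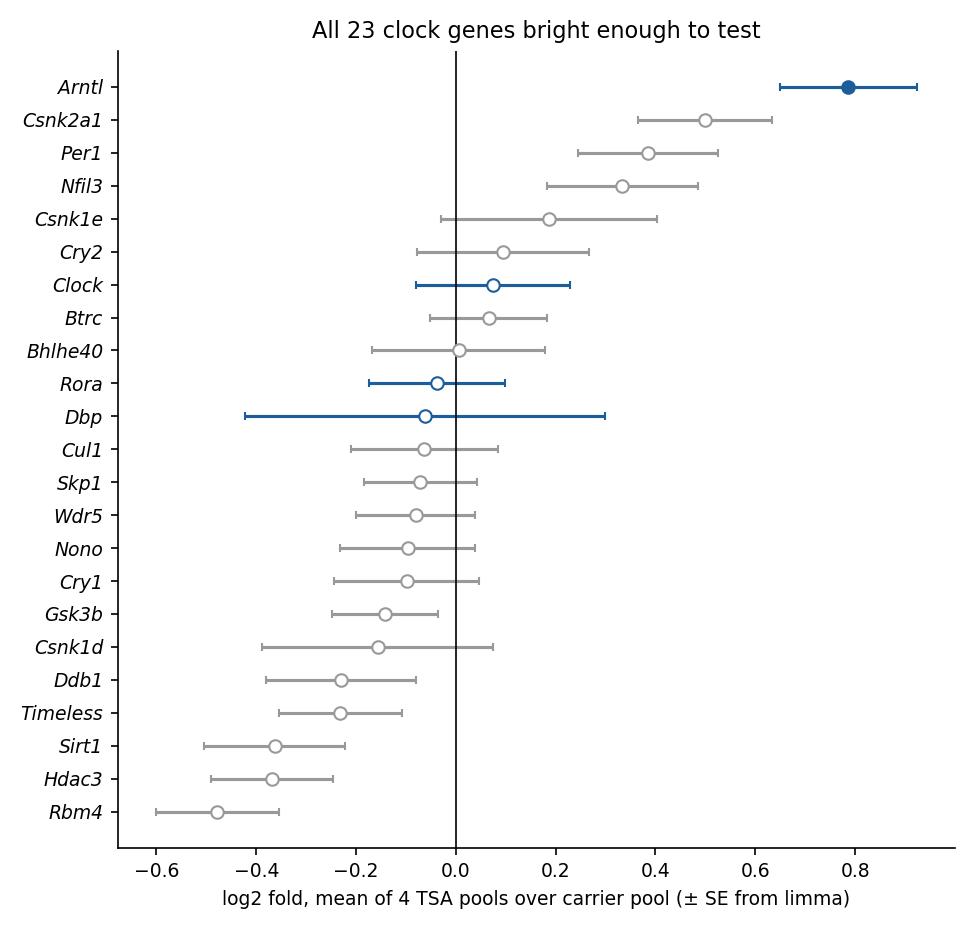
Mean log2 difference between the TSA pools and the carrier pool (horizontal axis, with its SE from limma) for the 23 clock genes bright enough to test. A filled point marks an adjusted p under 0.05, which Arntl alone reached, at 0.79. The others lie between -0.48 for Rbm4 and 0.50 for Csnk2a1.

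For each member the probes with the most similar course over the 10 arrays were looked up among those above the median brightness, with Pearson's r on the log2 scale. For Arntl these were Dtnb (r = 0.988), Atp6v0b (0.983) and Ube2v2 (0.983), and 155 of 3363 candidates had r above 0.9. The courses most like that of Dbp belonged to Oxct1 (0.962), Abhd2 (0.946) and Nup50 (0.940), with 12 candidates above 0.9. For Clock they were Anapc16 (0.917), Rnf144a (0.914) and Pik3c2g (0.902), with 3 above 0.9, and for Rora Tex9 (0.909), Lpar3 (0.907) and Ndufaf2 (0.899), with 2 above 0.9. A course like that of Arntl was thus shared by more bright probes than one like that of Dbp, Clock or Rora, as a description of 10 arrays from 5 pools.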

How the data were processed

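Testis RNA from 5 pools of 3 mice was read on 10 one-colour CodeLink arrays (Cy5). The deposited intensity values were linear. Once sorted, every array held the same values, so the authors had quantile normalised them. The software and background correction behind them: not given in the sources used here. Of 10012 probes, 115 had no values. Of the probes, 8983 carried 1 gene symbol in the platform annotation, and 8975 were matched to RefSeq by gene ID.

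A floor was set at the 5th percentile (0.0364) before log2. The lowest 25% of probes by mean (intensity up to 0.207) were left out and arrays shifted to a common median, with 7422 probes left. limma 3.58.1 in R 4.3.3 was fitted to the 5 pool means (3 residual degrees of freedom), two-sided, with Benjamini-Hochberg adjustment over all probes. The lone carrier pool was taken to vary like the TSA pools. Single times had no test and followed a size rule: 2-fold, with both arrays beyond both arrays. Arrays with the same number in different pools did not deviate together (r from -0.187 to 0.14, 10 pairs of pools), so the numbers paired nothing. The scripts were tested on simulated data. Figures used matplotlib 3.10.9 in Python 3.11.15.

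The members, the lists of clock, output and cell type genes, and the tests were chosen with earlier results of these data known. Named were all member probes, all other listed clock genes, the output genes called or otherwise the 4 with the largest mean TSA fold, and for each member the 3 bright probes (above an intensity of 1.99) with the highest r. Alternatives changed the filter, floor, offset, array shift, size rule, limma settings, arrays and pools. Centring within 50 bins of neighbouring probe ID numbers (called ID centring), and the comparisons of neighbouring TSA times, were added after the data were seen. No counting depth applies to arrays, and their number limits the precision.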

Additional observations from a re-analysis of the deposited data

Results flagged for a closer look

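For 6 of the genes described, both arrays of a TSA pool lay above both carrier arrays at some time and below both at another, as for 14.4% of all tested probes. Each group was 1 pool, so the differences between times were not tested. Dbp was 0.98 higher on the log2 scale at 10 h than at 2.5 h, with folds over the carrier pool of 0.48 and -0.51, and it lay above at 2 times and below at 2. Clock differed by 0.37 between 10 h (0.26) and 5 h (-0.12), and its fold at 10 h took the opposite sign (-0.025) under ID centring. Csnk1e differed by 0.60 between 2.5 h (0.49) and 10 h (-0.11), above at 3 times and below at the last. Bhlhe40 differed by 0.41 between 10 h (0.27) and 2.5 h (-0.14), and Cul1 by 0.31 between 10 h (0.06) and 5 h (-0.25). Star, the cholesterol carrier of steroid synthesis and a clock output gene, differed by 1.05 between 10 h (0.15) and 7.5 h (-0.90).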

How the results depend on the processing

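The Arntl difference between TSA pools and carrier stayed above 0 on the log2 scale in all 23 alternatives, from 0.284 to 0.835. It no longer passed with no filter (0.784, adjusted p = 0.1251), with an offset before log2 (0.284, adjusted p = 0.06215), or without the 2.5, 5, 7.5 or 10 h pool (0.835, 0.767, 0.801 and 0.742), and with the lowest 50% of probes left out Arntl was not tested. In each of these 7 settings 0 of 4 members passed, against 1 in the fit as reported. Leaving out single arrays gave 0.769 to 0.803 for Arntl, with adjusted p between 0.0375 and 0.06749, and 0 to 1 member called. All probes called numbered 272, and 1 with no filter, 575 with the lowest 50% left out, 455 with the offset, 3, 3, 6 and 8 without the 2.5, 5, 7.5 or 10 h pool, and 6 to 496 with single arrays left out. The Clock difference was -0.159 under ID centring, that of Dbp 0.087 or 0.045 without the 2.5 h or 7.5 h pool, and that of Rora 0.007 without the 2.5 h pool and -0.221 to 0.146 without single arrays. None of these passed the test in any alternative, and without the 10 h pool the slopes of Clock and Dbp were -0.0018 and -0.0187. The cause was not tested. With the 10 arrays as samples the Arntl slope, 0.0776, passed with no block (adjusted p = 0.005432), with the array number as a replicate block (0.009643) and with the pool as a random block (0.02244), so 1 member in place of 0 passed the trend; these fits count technical duplicates. The Arntl difference under the replicate block was 0.786 (adjusted p = 0.0006191), where 2391 probes passed, with 2648 under no block and 1040 under the random block. Of the 23 listed clock genes, Arntl included, 7, 8 and 3 then passed that test and 6, 6 and 2 the trend; eBayes with trend and robust gave 3 (814 probes) and 0, and the offset 1 that was not Arntl. At 1.5-fold the size rule called 1 member in each of the 5 comparisons, in place of 0, and at 3-fold 0. For 10 h over 2.5 h it called 0 to 1 without single arrays.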

Other observations

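Of 15 listed genes that the clock is known to drive in other tissues, 13 were measured and 10 tested, and none passed limma or met the 2-fold rule against the carrier pool. The 4 with the largest mean folds were Ppara, Nampt, Tsc22d3 and Star. Ppara, a nuclear receptor of fatty acid metabolism, was dim, with 0.153 to 0.304 on the TSA arrays and 0.171 and 0.147 on the carrier arrays. It passed the filter (0.207) only through the TSA pools, so its fold and test are not given. Nampt, the rate-limiting enzyme of NAD salvage, read 0.207 to 0.34 on the TSA arrays, against 0.344 and 0.342 on the carrier arrays. Its log2 difference was -0.38 ± 0.119 (limma adjusted p = 0.1088). All 8 TSA arrays of Nampt lay below both carrier arrays, as for 22.9% of all tested probes, but its 5 h duplicates read 0.233 and 0.34. Tsc22d3, a glucocorticoid-induced gene, read 4.84 to 6.46, against 4.46 and 4.41, with 0.30 ± 0.158 (adjusted p = 0.258). Its 8 TSA arrays lay above both carrier arrays, as for 22.4% of all tested probes. Star read 3.37 and 3.08 in the carrier pool, 3.09 and 2.98 at 2.5 h, 2.54 and 2.57 at 5 h, 1.79 and 1.66 at 7.5 h, and 3.59 and 3.56 at 10 h, with -0.29 ± 0.354 over the TSA pools (adjusted p = 0.6194). Its lowest pool was the 7.5 h pool and its highest the 10 h pool, which was 2.075-fold higher and met the 2-fold rule in that comparison. These 2 pools were compared after the values had been seen, and the share of all probes that met the rule there was not counted. The Leydig cell marker sums, which include Star, were 117.5 at 7.5 h and 133.7 at 10 h, of which Cyp17a1 alone made up 87.7 and 99.1. Scarb1 had a lower mean at 10 h (2.79) than at 7.5 h (2.99), and the other Leydig markers had higher means at 10 h.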
